A study of Sus scrofa with 10 samples.

Results

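Solute carriers are membrane proteins that move sugars, amino acids, ions, metals, vitamins and other small molecules into cells and between their compartments. The genes described here were those whose symbol in the array's annotation begins with SLC and a number, represented by the probe set with the highest mean, where that mean log2 value over all 10 arrays exceeded 6. Of 286 such genes with a named probe set, 154 met this rule and 132 did not, out of 13755 named genes in all. Members were thus selected on their measured mean level over both groups, and the difference between the groups was not part of the rule. The lowest members were SLC27A3 at a mean of 6.0 after rounding, SLC24A1 at 6.02 and SLC38A1 at 6.03. Just outside lay SLC16A3 at 5.99, SLC35D2 at 5.96 and SLC39A4 at 5.95.

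The cells came from 5 Hampshire pigs and were alveolar macrophages, which take up particles and microbes in the air spaces of the lung. Each pig gave 1 array of cells that stayed unattached after overnight culture with recombinant human CSF-1 (non-adherent, n = 5) and 1 of attached cells (adherent, n = 5), all labelled untreated at 0 h. Unattached cells had passed a cytometric sort that kept those of large size and high granularity, while no sort is stated for the attached ones. The protocol text given for the attached cells describes taking adherent cells away and adding lipopolysaccharide at 100 ng/ml, against their label. Ages and sexes are not given in the sources used here. The adherent arrays were taken from an earlier series on the same animals, so group, array series and sort cannot be told apart in any difference below.

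In macrophages, carriers of the plasma membrane supply glucose and amino acids, among them cystine for glutathione. Carriers of lysosomes and phagosomes return the products of digestion to the cytosol and pump metals away from ingested microbes. Most carriers of the SLC25 family form the traffic of the inner mitochondrial membrane, and the SLC35 family brings nucleotide sugars into the Golgi apparatus. Members were sorted into substrate classes by family, with exceptions for single genes of known substrate. SLC6 genes, some of which carry amines, taurine or creatine, stand with the amino acids. All SLC25 members stand with the mitochondrial carriers, whatever their place in the cell.

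Values are log2 probe set values. They can be compared between arrays for 1 gene, but not between genes. Array medians lay between 4.97 and 5.09 and the median of the background probes between 3.06 and 3.41. The spiked hybridisation controls had means of 7.43 to 7.63 on non-adherent and 6.73 to 6.88 on adherent arrays, and their part in the differences was not tested. Adherent animal 1 stood apart, with a mean correlation of 0.952 with its group, against 0.978 to 0.979 for the other adherent arrays. Results are therefore also given without it. Of 15 genes listed for alveolar macrophages 12 were measured, and 3 of them (CD163, MSR1 and PTPRC) were higher and 1 (PPARG) lower in non-adherent cells. Without adherent animal 1, 5 were higher and 2 lower. With the mean of probe sets 4 were higher, MRC1 among them (1.39, adjusted p = 0.00287), and 1 lower. The mean level of the 12 was 9.33 to 9.72 on non-adherent and 8.73 to 9.77 on adherent arrays. FABP4 stood near background in both groups, at 3.73 and 3.94, and CHIT1 was low as well, at 4.52 and 4.43. Of 12 dendritic cell markers 10 were measured and 7 of these rose in the non-adherent group. Their mean level was 7.05 to 8.40 there against 5.99 to 6.27. Whether such cells account for any difference below was not tested. Across 7 lists for other cell types, 47 genes were measured, of which COL1A2 was higher and EPCAM lower. In such bulk samples, fewer cells of a type and less RNA per cell cannot be told apart.

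More carriers were lower than higher in non-adherent cells. Of the 154 members, 31 were lower and 11 higher at an adjusted p under 0.05, and 112 did not pass. Adjusted p is the limma p-value after Benjamini-Hochberg adjustment over all 13755 genes. The 42 calls made up 27.3% of members. Over all genes 16.5% passed, and 25.5% of the 7375 genes with a mean above 6, so the share of members called was near that of genes at the same level. The lower calls were 20.1% of members against 16.2% of those genes and 9.78% of all genes. The higher calls were 7.14% against 9.36% and 6.72%. The median log2 difference, non-adherent minus adherent, was -0.16 over the members, -0.06 over genes above 6 and 0.01 over all genes. Without adherent animal 1, 41 members were lower and 12 higher, and 40 of the 42 calls were kept. Of all genes 22.3% passed in that fit, 13.0% lower and 9.34% higher. Among the 7375 genes above 6, 1571 were lower and 946 higher in it. With the animal as a block, 36 were lower and 10 higher, and 40 of the 42 were kept. Of all genes 18.2% passed with the block, 10.4% lower and 7.85% higher. Among the 7375 genes above 6, 1269 were lower and 772 higher with it. The number higher was less stable. It was 5 without animal 3, 4 or 5 or without the non-adherent array of animal 3, and 6 without the adherent array of animal 3 or 5 or the non-adherent array of animal 1, 4 or 5.

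A log2 difference of at least 1 was reached by 10 of the lower and 2 of the higher members, 7.79% of members against 4.03% of genes above 6 and 2.38% of all genes. The groups did not overlap for 36 members, with 28 below and 8 above in non-adherent cells. That is 23.4% of members against 22.8% of genes above 6 (14.1% below and 8.64% above) and 15.0% of all genes (8.63% below and 6.35% above). The sign was negative for 98 members and positive for 56. Among genes above 6 it was negative for 4121 and positive for 3254, and among all genes for 6714 and 7041. Of the 42 called members, 39 moved the same way in all 5 animals, an agreement that calling them on the same arrays favours. Only 1 group had a mean above 6 for 10 members, and 5 of these were called. They were SLC12A9, SLC16A13, SLC16A8 and SLC2A8, lower, and SLC24A1, higher, and each had met the level through the group where it was high. Leaving out any animal or any array kept 27 of the calls, 22 lower and 5 higher. Of the 15 calls lost without some animal, 12 were also lost without some single array.

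**Figure D1:**
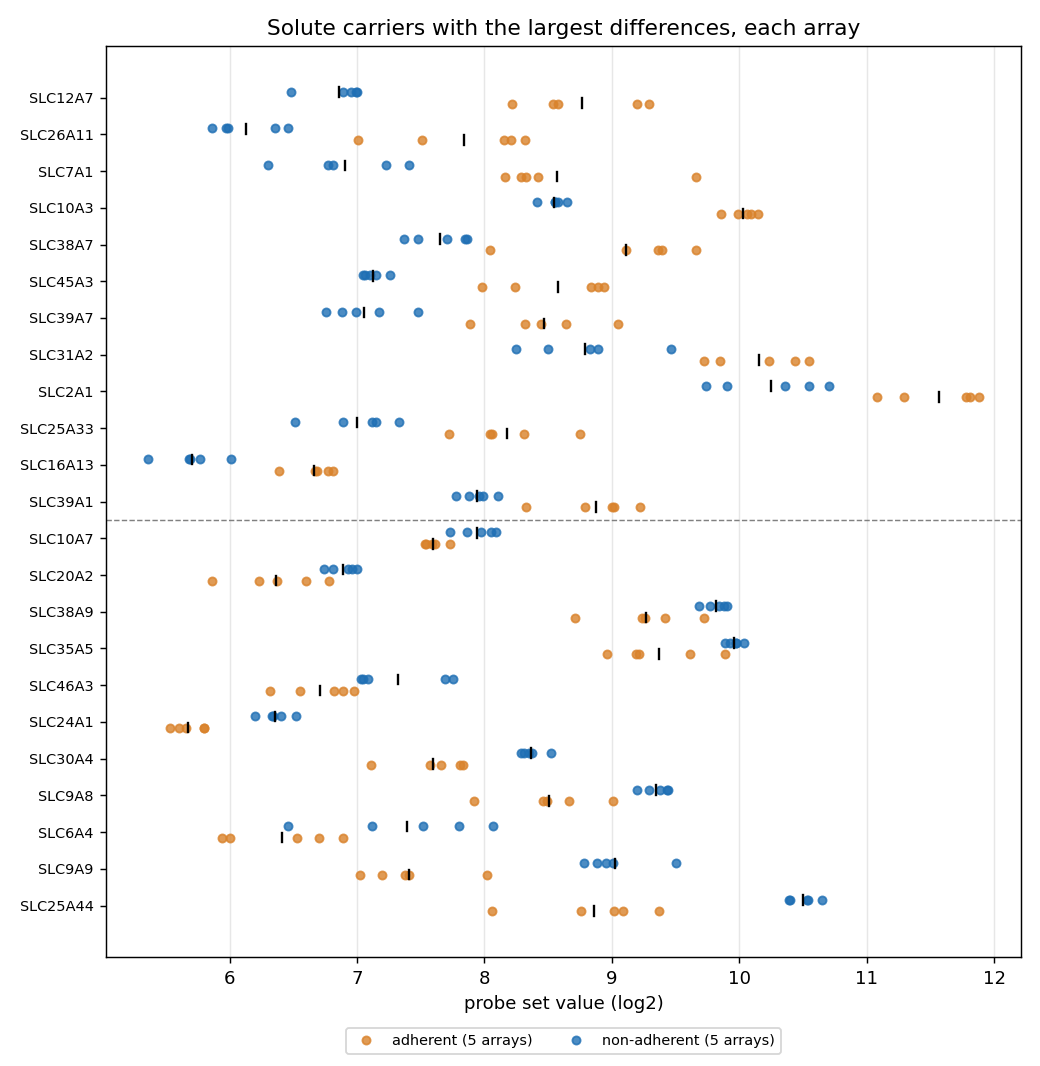
Log2 probe set values on each array for the 12 lowest differences among solute carriers past an adjusted p of 0.05 (above the dashed line) and the 11 past it that were higher in non-adherent cells (below it). Each point is 1 array (orange adherent, blue non-adherent, n = 5 each) and each black tick a group mean. SLC12A7 reads 6.48 to 7.0 on non-adherent and 8.22 to 9.29 on adherent arrays, and SLC25A44 lies the other way round.

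By substrate, the sign leaned most clearly for sugars, where 12 of 14 members had a negative difference. Genes above 6 leaned the same way, with 4121 of 7375 negative. The median difference of the sugar carriers was -0.42, with 3 members lower and 11 not past the threshold. Their calls made up 21.4%, against 25.5% of genes above 6. SLC2A8, 1 of the 3, had a mean above 6 in the adherent group alone. Mitochondrial carriers had 5 lower and 1 higher of 27 (22.2% called, median -0.22), and amino acid carriers 5 lower and 2 higher of 24 (29.2%, median -0.08). Metal carriers had 3 lower and 1 higher of 23 (17.4%, median -0.14), and Golgi and endoplasmic reticulum carriers 2 lower and 1 higher of 16 (18.8%, median -0.04). Carriers of sodium, potassium, chloride, protons and bicarbonate had a positive median of 0.31. They had 3 lower and 3 higher of 9 (66.7% called), and with adherent animal 1 left out 2 lower and 3 higher. Of the called ion carriers, SLC12A9 had a mean above 6 in the adherent group alone and SLC24A1 in the non-adherent group alone. All 3 monocarboxylate calls of 7 members (42.9%) were lower, 2 of them (SLC16A13 and SLC16A8) in members whose mean exceeded 6 in the adherent group alone. Also lower were both calls among 4 nucleoside carriers (50.0%). Without adherent animal 1, 3 monocarboxylate carriers were lower and 1 higher. Of the 4 genes named for a carrier but themselves none, limma called 0, and 0 at an unadjusted p under 0.05. The lowest p there was that of the scaffold SLC9A3R1 (-0.51 ± 0.24, adjusted p = 0.176). Differences between classes were not tested.

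**Figure D2:**
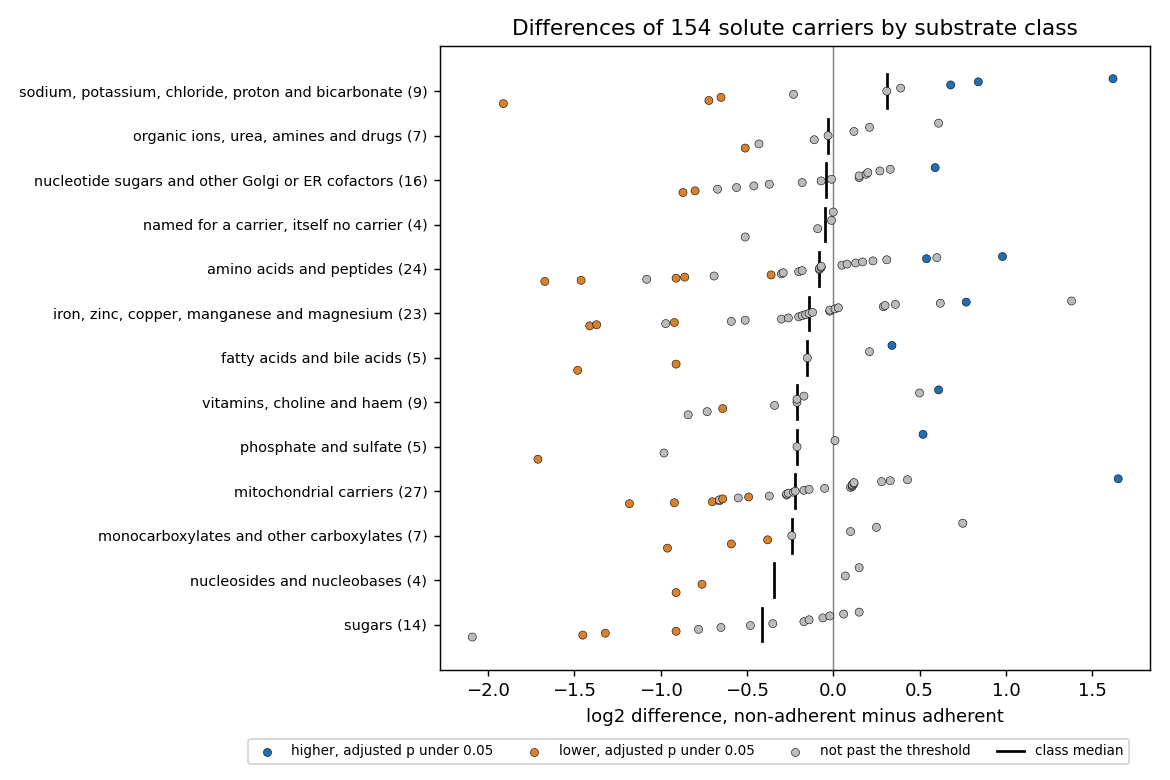
Log2 difference, non-adherent minus adherent, of each of the 154 solute carriers by substrate class, with the number of members in parentheses. Points are genes (blue higher, orange lower, grey not past an adjusted p of 0.05) and black bars class medians. Sugar carriers have the lowest median, -0.42, and carriers of sodium, potassium, chloride and protons the highest, 0.31.

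Among sugar carriers, the glucose importer SLC2A1 (GLUT1) was 2.49-fold lower in non-adherent cells. It read 9.90, 9.74, 10.36, 10.55 and 10.70 on the non-adherent arrays of animals 1 to 5 and 11.08, 11.29, 11.81, 11.78 and 11.88 on the adherent ones. Every non-adherent array was below every adherent one, and SLC2A1 fell by 1.32 ± 0.22 (SE; adjusted p = 0.00252). The mean of its 2 probe sets gave a smaller difference, -0.70 (adjusted p = 0.00221). SLC45A3, a member of a sugar carrier family known from prostate, read 7.15, 7.26, 7.06, 7.05 and 7.10 on non-adherent and 7.98, 8.24, 8.94, 8.84 and 8.89 on adherent arrays. The groups were again apart, and it fell by 1.45 ± 0.18 (adjusted p = 0.000563). Of its other 2 probe sets 1 fell past the threshold, by 2.26. SLC2A8 (GLUT8), an intracellular hexose carrier, fell by 0.91 ± 0.10 (adjusted p = 0.000259), and both its other probe sets were also lower past the threshold. The high-affinity glucose importer SLC2A3 (GLUT3) did not pass (-0.14 ± 0.22, adjusted p = 0.721). Its sign turned when its 5 probe sets were averaged (0.20).

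The fructose carrier SLC2A5 (GLUT5) had the most negative difference of all members, -2.09 ± 0.93, and differed even more between pigs. It read 5.05, 5.46, 9.09, 8.69 and 7.76 on non-adherent and 8.53, 7.14, 11.13, 10.43 and 9.26 on adherent arrays. In both groups animals 3 and 4 were highest, and non-adherent animals 1 and 2 stood lowest of all. The groups overlapped, while within each of the 5 pigs the non-adherent array was the lower, with differences of -1.50 to -3.49. The fit without the animal did not call SLC2A5 (adjusted p = 0.149), nor did one with a random animal effect (0.0884), while a fixed block for the animal did (adjusted p = 0.00328). SLC37A4, the glucose-6-phosphate carrier of the endoplasmic reticulum, was likewise called once the animal was in the fit (adjusted p = 0.0151, against 0.0874, and 0.0495 with a random effect). Its paired differences were -0.04, -1.13, -0.90, -0.92 and -0.91 for animals 1 to 5, so animal 1 alone showed almost none. Without adherent animal 1 its difference was -1.08 (adjusted p = 0.000598).

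Of 17 measured genes of glycolysis, 5 were lower and 12 did not pass (median difference -0.22). That share, 29.4%, was near the 25.5% of all genes above 6 and above the 16.5% of all genes. Lists of related genes were not held to a mean above 6. The enolase ENO1 fell by 1.51 ± 0.16 (adjusted p = 0.000215). TXNIP, known to lower glucose uptake by removing SLC2A1 from the surface, rose by 0.85 ± 0.10 (adjusted p = 0.000334). In the list of carrier partners and chaperones, 2 of 9 genes rose and 1 fell (33.3% called). All genes had 16.5% called and genes above 6 had 25.5%. The rises were those of TXNIP and NPTN (0.43 ± 0.10, adjusted p = 0.0143), NPTN named after its value was seen. EMB lay near the background, at 3.84 and 3.89, and did not pass. The fall was that of BSG (basigin), a partner of monocarboxylate carriers, at -0.38 ± 0.09 (adjusted p = 0.016). The call of BSG was lost without animal 3 or 4 (highest adjusted p 0.0874), and the mean of its 5 probe sets had the opposite sign (0.02, adjusted p = 0.945).

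Monocarboxylate carriers move lactate, pyruvate and related acids with protons. SLC16A13 fell by 0.96 ± 0.13 (adjusted p = 0.000667), from 6.39 to 6.81 on adherent to 5.36 to 6.01 on non-adherent arrays, with no overlap. SLC16A8 (MCT3) fell by 0.59 ± 0.15 (adjusted p = 0.0234), a call lost without animal 2, 3, 4 or 5 (highest adjusted p 0.088). SLC16A5 (MCT6) fell by 0.38 ± 0.11 (adjusted p = 0.0329), a call lost with the block (adjusted p = 0.058), after quantile normalization (0.112) and without animal 2, 3, 4 or 5. The lactate carrier SLC16A1 (MCT1) did not pass (-0.24 ± 0.30, adjusted p = 0.619). It lay at 8.13 to 9.84 on non-adherent and 8.77 to 9.43 on adherent arrays, with its lowest values on the non-adherent arrays of animals 1 and 2. SLC16A7, named after its value was seen, was higher in all 5 animals but did not pass (0.75 ± 0.26, adjusted p = 0.0708). It passed without adherent animal 1 (0.50, adjusted p = 0.0415) and with a random animal effect (0.047).

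In the amino acid class the largest fall was that of SLC7A1 (CAT1), the main importer of arginine and lysine. It read 6.81, 6.30, 6.77, 7.23 and 7.41 on non-adherent and 9.66, 8.16, 8.33, 8.42 and 8.29 on adherent arrays. The groups were apart, with adherent animal 1 the highest, and SLC7A1 fell by 1.67 ± 0.29 (adjusted p = 0.00348). It was -1.40 once adherent animal 1 was left out (adjusted p = 0.00061). Averaged over its 2 probe sets it was -0.96 (adjusted p = 0.0391). SLC1A5 (ASCT2), an exchanger of glutamine, fell by 0.91 ± 0.20 (adjusted p = 0.0114). Adherent animal 1 was the exception in its group, at 9.91 against 10.85 to 11.03, and without it the difference was -1.12 (adjusted p = 7.28e-05). The call of SLC1A5 was lost without animal 2, 3 or 5 (highest adjusted p 0.0716). SLC6A6, the taurine importer, fell by 0.86 ± 0.16 (adjusted p = 0.00558), and its other 3 probe sets were lower past the threshold too, by 0.90 to 1.52.

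SLC38A7, which exports glutamine from lysosomes, read 7.71, 7.37, 7.86, 7.85 and 7.48 on non-adherent and 8.04, 9.11, 9.39, 9.66 and 9.36 on adherent arrays. The groups did not overlap, although adherent animal 1 came close, and SLC38A7 fell by 1.46 ± 0.26 (adjusted p = 0.00386, and -0.90 when its 2 probe sets were averaged). SLC38A9, a lysosomal arginine sensor that signals to mTORC1, rose by 0.54 ± 0.16 (adjusted p = 0.0366). That call was lost without animal 1, 3, 4 or 5 (highest adjusted p 0.129) and when its 5 probe sets were averaged (0.27, adjusted p = 0.295). SLC36A1 (PAT1), which exports small amino acids from lysosomes, did not pass (0.08 ± 0.31, adjusted p = 0.892). Its adherent animal 1 read 7.63 and the other adherent arrays 9.24 to 9.44. Without that array its sign turned (-0.26, adjusted p = 0.0998).

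SLC38A10, a less studied carrier of the same family, fell by 0.36 ± 0.09 (adjusted p = 0.0193), a call lost without animal 2, 3 or 5 (highest adjusted p 0.0776). SLC6A4, the serotonin importer, rose by 0.98 ± 0.30 (adjusted p = 0.0434) but was lower in non-adherent cells of animal 2. Its call was lost without animal 1, 3, 4 or 5 (highest adjusted p 0.161), without adherent animal 1 (adjusted p = 0.0589) and with centred arrays (0.0556).

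SLC7A11 (xCT), which imports cystine in exchange for glutamate, showed how far adherent animal 1 departed. It read 12.62, 12.60, 12.58, 12.80 and 12.75 on non-adherent and 10.06, 12.68, 12.53, 12.42 and 12.65 on adherent arrays. All arrays but that of adherent animal 1 lay within 12.42 to 12.80. With all arrays the difference was 0.60 ± 0.44 (adjusted p = 0.378), and without that array 0.10 (adjusted p = 0.465). SLC3A2 (CD98), the heavy chain that pairs with SLC7A11 and SLC7A5, did not pass (-0.18 ± 0.14, adjusted p = 0.422), but did without adherent animal 1 (-0.31, adjusted p = 0.0315). SLC7A5 (LAT1), the importer of large neutral amino acids, differed by -0.69 ± 0.22 (adjusted p = 0.054). Without adherent animal 1, its highest array, the difference was -0.50 (adjusted p = 0.0393), and it passed as well with centred arrays (-0.72, adjusted p = 0.0451) and with a random animal effect (0.0358).

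The lists of amino acid sensing and of the amino acid response had shares of calls between the 16.5% of all genes and the 25.5% of genes above 6. Of 18 genes of amino acid sensing by mTORC1, 4 fell (22.2%) and 14 did not pass (median difference -0.16). The lysosomal transcription factor TFEB fell by 1.10 ± 0.08 (adjusted p = 4.04e-05). Of 21 genes of the amino acid response, 5 fell (23.8%) and 16 did not pass (median -0.21). With the block, 1 gene of the amino acid response rose and 6 fell, and with averaged probe sets 1 of amino acid sensing rose and 5 fell. DDIT4, an inhibitor of mTORC1, fell by 1.66 ± 0.27 (adjusted p = 0.00218). Without adherent animal 1, 2 genes of amino acid sensing rose and 6 fell, and 1 of the amino acid response rose and 6 fell. Of 13 genes of glutathione and thioredoxin metabolism, 4 fell and 9 did not pass (median -0.11). That share, 30.8%, lay above both the 16.5% of all genes and the 25.5% of genes above 6. The lipid peroxidase GPX4 fell by 1.02 ± 0.11 (adjusted p = 0.000259).

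Of the 9 ion carriers, 6 were called (66.7%, against 25.5% of genes above 6), 3 in each direction. SLC12A7 (KCC4), a potassium and chloride exporter that acts in cell volume control, was 3.75-fold lower. It read 6.99, 7.0, 6.95, 6.89 and 6.48 on non-adherent and 9.29, 9.20, 8.58, 8.22 and 8.54 on adherent arrays. The gap between the groups was wide, and SLC12A7 fell by 1.91 ± 0.20 (adjusted p = 0.000207). Its other probe set fell as well, by 0.93. SLC12A9, a relative of unclear substrate, fell by 0.72 ± 0.14 (adjusted p = 0.00637), and -0.38 was its difference when its 2 probe sets were averaged. SLC26A6, an exchanger of chloride, bicarbonate and oxalate, fell by 0.65 ± 0.20 (adjusted p = 0.0445). Its call was lost without animal 1, 3, 4 or 5 (highest adjusted p 0.123), without adherent animal 1 (adjusted p = 0.0586), with centred arrays (0.0513) and when its 2 probe sets were averaged (-0.45, adjusted p = 0.122).

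SLC9A9 (NHE9), a sodium-proton exchanger of endosomes, was 3.07-fold higher in non-adherent cells. It read 9.01, 9.50, 8.88, 8.95 and 8.78 on non-adherent and 8.02, 7.20, 7.02, 7.38 and 7.41 on adherent arrays. The groups were apart and SLC9A9 rose by 1.62 ± 0.19 (adjusted p = 0.000363). Its second probe set, at a mean level of 3.64 near the background, differed by -0.05, and the mean of both gave 0.78 (adjusted p = 0.00195). SLC9A8 (NHE8), a sodium-proton exchanger of the Golgi and endosomes, rose by 0.84 ± 0.17 (adjusted p = 0.00662), a call lost when its 3 probe sets were averaged (0.42, adjusted p = 0.0519). SLC24A1, a sodium-calcium-potassium exchanger known from photoreceptors, rose by 0.68 ± 0.09 (adjusted p = 0.000723), from 5.53 to 5.80 on adherent to 6.20 to 6.52 on non-adherent arrays. Averaged over its 2 probe sets the rise was 0.38. Among 19 related genes of cell volume and ion control, 2 rose and 2 fell (21.1%). That share lay between the 16.5% of all genes and the 25.5% of genes above 6. The sodium pump subunit ATP1B1 rose by 0.66 ± 0.11 and the lysosomal chloride-proton exchanger CLCN7 fell by 1.35 ± 0.09 (adjusted p = 2.25e-05).

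Of the phosphate and sulfate carriers, SLC26A11, a sulfate and chloride carrier, was 3.27-fold lower. It read 5.86, 5.99, 6.36, 5.97 and 6.46 on non-adherent and 7.01, 8.32, 8.21, 8.15 and 7.51 on adherent arrays. The groups did not overlap, and adherent animal 1 was the lowest of its group. SLC26A11 fell by 1.71 ± 0.24 (adjusted p = 0.0011), with both other probe sets lower past the threshold. SLC20A2, a sodium-phosphate importer that is also a retroviral receptor, rose by 0.52 ± 0.15 (adjusted p = 0.0419). That call was lost without animal 3, 4 or 5 (highest adjusted p 0.16), with centred arrays (0.0654) and when its 3 probe sets were averaged (0.05, adjusted p = 0.788). Its paralog SLC20A1 did not pass (-0.98 ± 0.37, adjusted p = 0.0948), but did without adherent animal 1 (-0.57, adjusted p = 0.0154). That array read 11.45 and the other adherent arrays 9.18 to 9.57.

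Of 8 members of the SLC39 family of zinc importers, 2 fell (25.0%, against 25.5% of genes above 6) and 6 did not pass. SLC39A7 (ZIP7), which releases zinc from the endoplasmic reticulum, read 6.88, 7.17, 6.76, 6.99 and 7.48 on non-adherent and 7.89, 8.64, 9.05, 8.32 and 8.44 on adherent arrays. The groups were apart, SLC39A7 fell by 1.41 ± 0.20 (adjusted p = 0.0012), and 3 of its 4 other probe sets fell past the threshold. SLC39A1 (ZIP1), a zinc importer, fell by 0.92 ± 0.15 (adjusted p = 0.00242). SLC39A8 (ZIP8), an importer of zinc and manganese induced by inflammation, did not pass (0.30 ± 0.17, adjusted p = 0.255). Among the SLC30 family, which moves zinc out of the cytosol, SLC30A4 (ZnT4) rose by 0.77 ± 0.13 (adjusted p = 0.00313). The plasma membrane exporter SLC30A1 (ZnT1) did not pass (-0.02 ± 0.27, adjusted p = 0.974), with a sign that turned without adherent animal 1 (0.19).

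The copper carrier SLC31A2 (CTR2), found in lysosomes and endosomes, read 9.46, 8.89, 8.83, 8.50 and 8.25 on non-adherent and 10.44, 10.55, 10.23, 9.85 and 9.72 on adherent arrays. The groups were apart and SLC31A2 fell by 1.37 ± 0.23 (adjusted p = 0.00277). The plasma membrane copper importer SLC31A1 (CTR1) did not pass (-0.30 ± 0.14, adjusted p = 0.163), although its non-adherent arrays were all below the adherent ones. With the mean of its 2 probe sets SLC31A1 passed (-0.67, adjusted p = 0.032).

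The iron carriers SLC11A1, SLC11A2, SLC39A14 and SLC40A1 were not called in the fit of all 10 arrays without the animal. SLC11A1 (NRAMP1), which withdraws iron and manganese from phagosomes, had nearly equal means of 10.08 ± 0.14 and 10.07 ± 0.37 (SD). The difference was 0.01 ± 0.16 (adjusted p = 0.97). Its relative SLC11A2 (DMT1), the general importer of ferrous iron, differed by -0.59 and was called with the block (adjusted p = 0.0267). Without the animal the SE of SLC11A2 was 0.33 and its adjusted p 0.243. With a random effect the adjusted p was 0.165. SLC39A14 (ZIP14), an importer of zinc, manganese and free iron, differed by -0.97 and was also called with the block (adjusted p = 0.0136). Without the animal the SE of SLC39A14 was 0.41 and its adjusted p 0.126. With a random effect the adjusted p was 0.075. The paired differences of SLC39A14 were -0.06, -1.36, -1.18, -0.94 and -1.33, and those of SLC11A2 were 0.00, -0.87, -0.89, -0.60 and -0.61. Animals 2 to 5 had lower non-adherent values in both genes, while animal 1 showed almost no difference. Without adherent animal 1 both passed, SLC39A14 at -1.23 (adjusted p = 0.0332) and SLC11A2 at -0.84 (adjusted p = 0.0432).

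SLC40A1 (ferroportin), the only known iron exporter of mammalian cells, read 7.43, 7.05, 7.41, 8.09 and 9.05 on non-adherent and 4.64, 6.30, 6.70, 8.33 and 6.18 on adherent arrays. It was higher in non-adherent cells of 4 of 5 animals, with animal 4 the exception. The spread was too wide for a call (1.38 ± 0.59, adjusted p = 0.135, and 0.0765 with the block). Adherent animal 1 was its lowest array, and without it the difference was 0.93 (adjusted p = 0.195). Of 19 other genes of iron and zinc handling, 1 rose and 2 fell (median -0.01). That share, 15.8%, lay below the 16.5% of all genes and the 25.5% of genes above 6. The iron reductase STEAP3 fell by 1.28 ± 0.18 (adjusted p = 0.000942). PCBP2, an iron chaperone, rose by 0.34 ± 0.10 (adjusted p = 0.0359), a call lost without animal 2, 3, 4 or 5 (highest adjusted p 0.13) and with centred arrays (0.067).

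SLC25A44, which carries branched-chain amino acids into mitochondria, had the largest rise of all members, 3.13-fold. It read 10.40, 10.39, 10.65, 10.54 and 10.53 on non-adherent and 8.06, 9.37, 9.02, 9.09 and 8.76 on adherent arrays. The non-adherent arrays lay close together and all stood above the adherent ones. SLC25A44 rose by 1.65 ± 0.20 (adjusted p = 0.000518), and of its 2 other probe sets 1 rose past the threshold, by 1.47. SLC25A33, a carrier of pyrimidine nucleotides, fell by 1.18 ± 0.20 (adjusted p = 0.00284), while its second probe set, at a low mean level of 4.15, differed by 0.06. SLC25A6 (ANT3), an exchanger of ADP and ATP, fell by 0.92 ± 0.13 (adjusted p = 0.000898; -0.51 when its 2 probe sets were averaged). Its paralog SLC25A5 (ANT2) did not pass (0.10 ± 0.12, adjusted p = 0.606). No source used here gives how far probes separate these near-identical paralogs.

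The remaining mitochondrial calls were all falls. SLC25A11, the exchanger of oxoglutarate and malate, fell by 0.64 ± 0.10 (adjusted p = 0.00229), a call lost when its 2 probe sets were averaged (-0.22, adjusted p = 0.0701). SLC25A28 (mitoferrin-2), an iron importer of mitochondria, fell by 0.70 ± 0.16 (adjusted p = 0.0118), a call lost without animal 3, 4 or 5 (highest adjusted p 0.0639). SLC25A38, which supplies glycine for haem synthesis, fell by 0.49 ± 0.14 (adjusted p = 0.0345). That call was lost without animal 3, 4 or 5 (highest adjusted p 0.122), after quantile normalization (0.0805) and when its 2 probe sets were averaged (adjusted p = 0.0901).

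Carriers of the Golgi and endoplasmic reticulum mostly did not pass. SLC33A1, which brings acetyl-CoA into the endoplasmic reticulum, fell by 0.87 ± 0.12 (adjusted p = 0.000796), and the mean of its 3 probe sets gave -0.29. Both others had mean levels of 3.03 and 3.01, at the background. SLC35B2, the carrier of the sulfate donor PAPS, fell by 0.80 ± 0.16 (adjusted p = 0.00672). SLC35A5, a member of the nucleotide sugar family, rose by 0.59 ± 0.16 (adjusted p = 0.0266), a call lost without animal 1, 3, 4 or 5 (highest adjusted p 0.113). SLC35E3, without a settled substrate, differed by -0.67 and was called with the block (adjusted p = 0.0292). It was not called without the animal (SE 0.25, adjusted p = 0.0893) or with a random effect (0.0533). Without adherent animal 1 it passed (-0.91, adjusted p = 0.00164).

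SLC10A3, an orphan of the bile acid carrier family, had the lowest p of all members. It read 8.55, 8.41, 8.55, 8.65 and 8.58 on non-adherent and 10.06, 9.86, 10.09, 10.15 and 9.99 on adherent arrays. The values barely varied within a group. SLC10A3 fell by 1.48 ± 0.08 (adjusted p = 5.77e-06), and its second probe set fell too, by 1.67. SLC10A7, a relative of unsettled substrate, rose by 0.34 ± 0.09 (adjusted p = 0.0254). That call was lost with the block (adjusted p = 0.0565), without animal 3, 4 or 5 (highest adjusted p 0.115), with centred arrays (0.0553) and when its 2 probe sets were averaged (0.20, adjusted p = 0.129). SLC27A4 (FATP4), an acyl-CoA synthetase that takes up fatty acids, fell by 0.91 ± 0.17 (adjusted p = 0.00539).

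Among carriers of nucleosides and nucleotides, SLC43A3, which carries purine nucleobases, fell by 0.91 ± 0.17 (adjusted p = 0.00491), and its second probe set fell too, by 1.04. SLC17A9, which loads ATP into vesicles, fell by 0.76 ± 0.15 (adjusted p = 0.00661). SLC29A3, the lysosomal nucleoside carrier, did not pass (0.15 ± 0.16, adjusted p = 0.566). In the organic ion class, SLC17A5 (sialin), which exports sialic acid from lysosomes, fell by 0.51 ± 0.14 (adjusted p = 0.0314), a call lost without animal 1, 3 or 4 (highest adjusted p 0.0955) and when its 2 probe sets were averaged (-0.28, adjusted p = 0.0756).

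Among vitamin and haem carriers, SLC46A1, the proton-coupled folate importer, fell by 0.64 ± 0.18 (adjusted p = 0.0315), a call lost without animal 2, 3, 4 or 5 (highest adjusted p 0.115) and after quantile normalization (0.0526). Its lysosomal relative SLC46A3 rose by 0.61 ± 0.18 (adjusted p = 0.0441), with no overlap of the groups, a call lost whichever animal was left out (highest adjusted p 0.11). SLC19A2, the thiamine importer, differed by -0.84 and was called with the block (adjusted p = 0.0481). It was not called without the animal (SE 0.31, adjusted p = 0.0922) or with a random effect (0.0591). Its paired differences were -2.0, -0.70, -0.63, -0.67 and -0.18, with animal 1 the largest. The haem carrier SLC48A1 did not pass (-0.21 ± 0.16, adjusted p = 0.39).

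Members also differed between pigs. The median SD over the 5 animals was 0.20 in non-adherent and 0.35 in adherent cells, and 0.22 in adherent cells without animal 1. For all genes above 6 these were 0.17, 0.26 and 0.18. Adherent animal 1 was the highest or lowest of its group for 107 of 154 members, against 42 to 63 for the other adherent arrays. After SLC2A5, the widest spread was that of SLC22A3 (OCT3), a carrier of organic cations and monoamines. SLC22A3 read 7.22, 5.74, 5.41, 5.35 and 8.61 on non-adherent and 6.84, 5.72, 5.96, 6.0 and 9.97 on adherent arrays. Animal 5 was the highest and animal 1 the next in both groups, and attachment gave no call (-0.43 ± 0.87, adjusted p = 0.775).

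**Figure D3:**
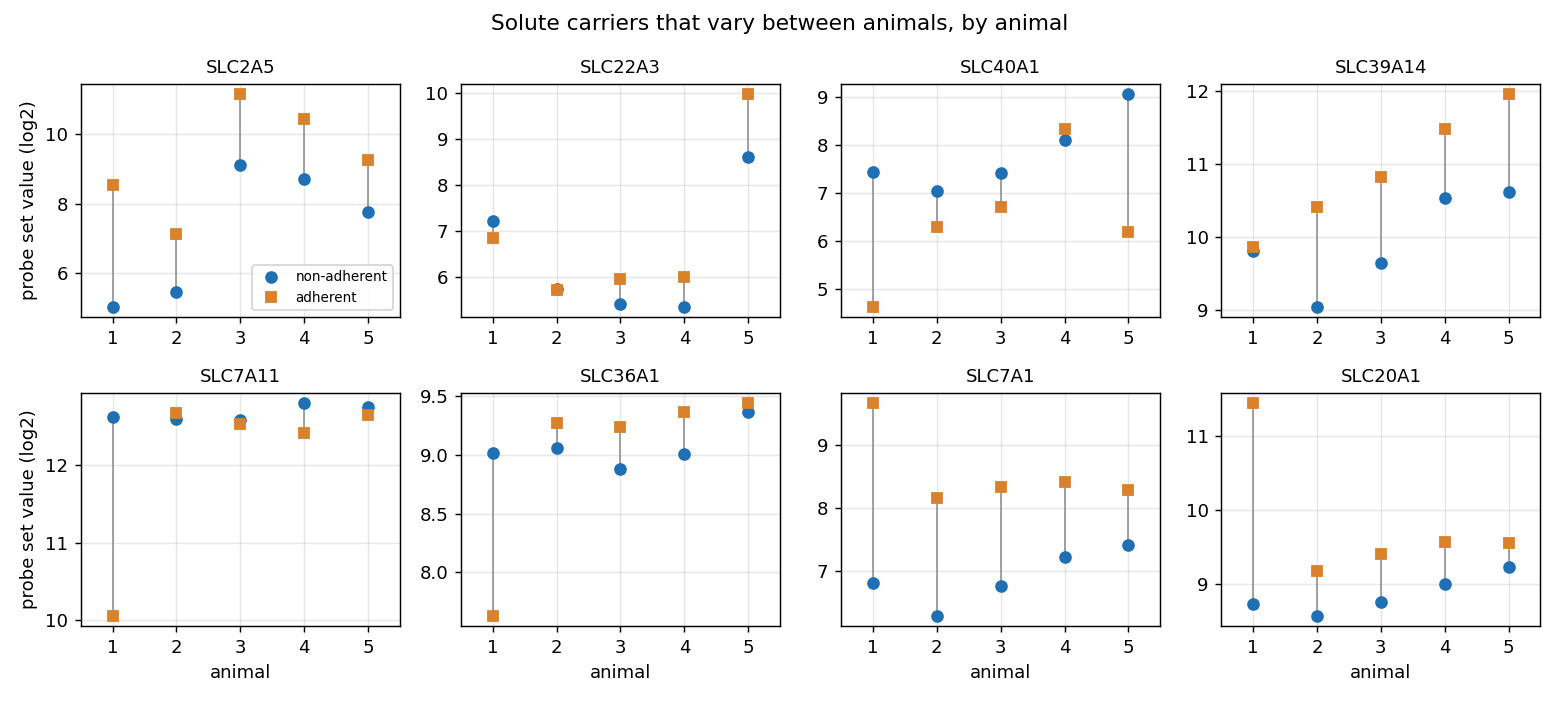
Log2 probe set values of 8 solute carriers by animal, non-adherent (blue circles) and adherent (orange squares), with a grey line joining the arrays of 1 pig. SLC2A5 and SLC22A3 differ between pigs in both groups, whereas SLC7A11, SLC36A1, SLC7A1 and SLC20A1 stand apart on adherent animal 1. The animals have no order, and each panel has its own scale.

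Of the 42 called members, 29 had more than 1 probe set. For 11 of them another probe set passed in the same direction, for none in the opposite direction, and for 18 no other one passed. Of their 44 other probe sets, 36 had the same sign as the one used, and 36 had a smaller difference. A mean level of 5 or below was found for 14 of the 44. Another 7 members that did not pass had a different probe set that did. When the probe sets of each gene were averaged, 31 members were lower and 7 higher, and 34 of the 42 calls were kept in their direction.

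**Figure D4:**
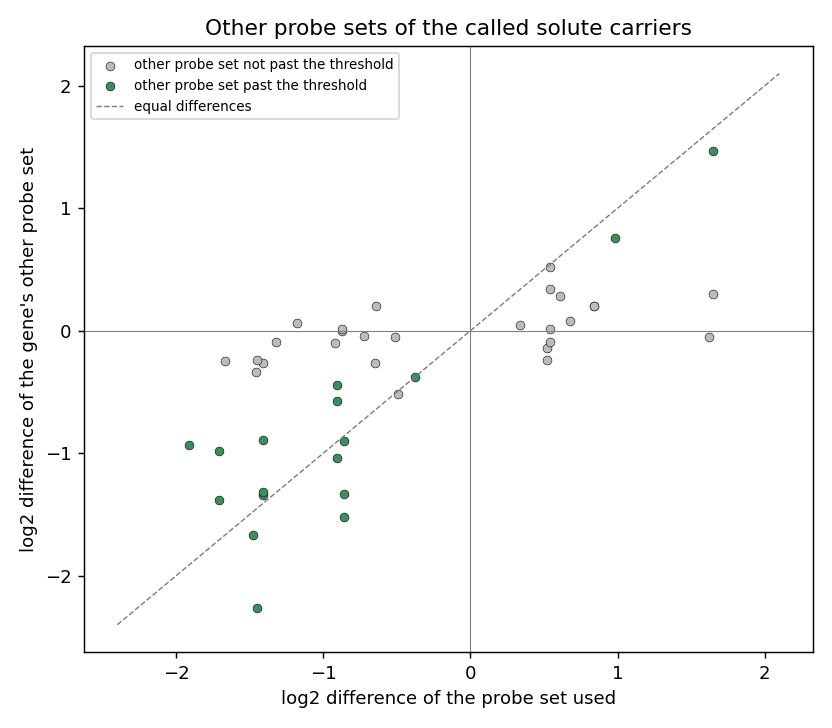
Log2 difference, non-adherent minus adherent, of each other probe set (vertical axis) against that of the probe set used (horizontal axis), for the called solute carriers with more than 1 probe set. Each of the 44 points is 1 other probe set, green where it passed an adjusted p of 0.05 over all probe sets (17 points) and grey where it did not. The dashed line marks equal differences, and most points lie nearer to 0 than it.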

How the data were processed

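The authors deposited a log2 value for each probe set. RMA and Partek are named, without versions, in the submitters' processing notes. Whether both array sets were normalized together, and the genome build behind the probes, are not given in the sources used here. Per the labels, 500 ng of RNA and 5 µg of cDNA were used for each array, which holds 47845 probe sets. Of these 26426 had 1 gene symbol in the platform annotation and 21419 were left unnamed. No pair of arrays was identical.

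For each of 13755 genes the probe set of highest mean was used. Groups were compared with limma 3.58.1 in R 4.3.3 (lmFit and eBayes, 2-sided, 10 arrays, no covariate), with Benjamini-Hochberg adjustment over all genes and a threshold of 0.05. The fits were tested on simulated data. Summaries used Python 3.11.15 and figures matplotlib 3.10.9. The number of arrays limits the precision, and errors of differences are SE.

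The members and lists were chosen with earlier results of these data known. Genes named were the 12 highest (only 11 were higher) and 12 lowest differences among called members, the lowest p of each class, the 3 largest SDs, the 3 members and 3 other genes next to the level of 6, and a list of well-studied carriers. Another 18 members, 13 of them called, were named after their values were seen. Of the listed carriers, 18 were members, 5 lay at or below the level (SLC38A2, SLC2A6, SLC16A3, SLC12A2 and SLC25A37) and 2 had no named probe set.

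Arrays of 1 animal are paired by the labels. Their deviations from the group means correlated by 0.116 to 0.398 within an animal, with a mean of 0.298, against a mean of -0.0715 between animals. Alternatives were an animal block, fixed or random, leaving out animals and arrays, centring, quantile normalization, a filter on dim probe sets, trended and robust variances, array weights, probe set means, a fit over all probe sets, other levels of membership and a size threshold. The leave-one-animal-out values of the spread were added after the data were seen.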

Additional observations from a re-analysis of the deposited data

Results flagged for a closer look

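In 13 of 154 groups of 5 arrays tested for the genes named, 1 array stood farther from the others than a common criterion for an outlying value allows (a gap above 0.71 of the range). Chance gives about 1 in 20 groups where groups are independent and not chosen by their values. Some genes here were named for a large SD or difference, and all share the same arrays. The 13 can therefore not be set against that rate. Of the 13, 8 were adherent animal 1. Its array was the highest of its group for SLC7A1 at 9.66 against 8.42 for the next, for SLC20A1 at 11.45 against 9.57 and for SLC19A2 at 11.0 against 9.64. It was the lowest for SLC7A11 at 10.06 against 12.42, for SLC1A5 at 9.91 against 10.85 and for SLC36A1 at 7.63 against 9.24. It was also the lowest for SLC35E3 at 7.64 against 8.66 and for SLC37A4 at 8.11 against 9.45.

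The other 5 lay in other arrays. SLC22A3 was highest in adherent animal 5 at 9.97 against 6.84 for the next. SLC12A7 was lowest in non-adherent animal 5 at 6.48 against 6.89, and SLC31A1 lowest in non-adherent animal 4 at 11.67 against 11.79. Of the related genes, ATP1B1 was highest in non-adherent animal 4 at 12.4 against 12.05, and GPX4 lowest in non-adherent animal 2 at 8.05 against 8.4. Their causes were not tested.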

How the results depend on the processing

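Among the 154 solute carriers, 31 lower and 11 higher calls became 22 to 41 and 5 to 12 when single animals or arrays were left out, and the median difference lay between -0.18 and -0.11. Averaging the probe sets of each gene gave 7 higher, and a log2 difference of at least 1 left 2 higher and 10 lower. Over all other alternatives both counts stayed within 1.5 times the values above. The within-group spread, 0.275 as the median SD over members averaged over both groups, was 0.215 to 0.284 with an animal left out. With the animal as a block, 36 members were lower and 10 higher. Calls lost were those of SLC16A5 and SLC10A7, calls gained those of SLC2A5, SLC37A4, SLC35E3, SLC19A2, SLC39A14 and SLC11A2, and no other call changed. With a random animal effect 34 were lower and 12 higher. No call was lost, and of those 6 SLC37A4 alone passed, beside SLC7A5 and, named after their values were seen, SLC37A1 (0.0326) and SLC16A7 (0.047).

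Signs turned for 7 named genes, of which BSG alone had passed (0.02 with the mean of probe sets). With single animals or arrays left out, SLC11A1 ranged from -0.14 to 0.10, SLC36A1 from -0.26 to 0.19, SLC30A1 from -0.26 to 0.19, SLC22A3 from -0.97 to 0.34 and SLC25A5 from -0.01 to 0.23. Centring turned SLC11A1 to -0.01, quantile normalization SLC30A1 to 0.02, and array weights SLC11A1 to -0.07, SLC36A1 to -0.15 and SLC30A1 to 0.07. Probe set means turned SLC11A1 and SLC36A1 to -0.17, SLC2A3 to 0.20 and SLC30A1 to 0.00. The cause was not tested. Over the genes named and all alternatives, 1630 values kept direction and side of the threshold, 165 calls were lost and 29 gained. Probe sets near the background of about 3 have little room to show a fall.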
